A study of Mus musculus with 15 samples.

Results

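The αβ T cell receptor complex and its coreceptors are encoded here by 10 genes, Cd3e, Cd3d, Cd3g, Cd247, Trac, Trbc1, Trbc2, Cd4, Cd8a and Cd8b1, listed here by name. All 10 were found among the 55416 gene identifiers of the count tables, and all 10 passed the low-count filter in every comparison. The tables hold bulk RNA-seq of peripheral blood, taken by cheek bleed from wild-type C57BL/6 mice and sequenced as 15 libraries, 5 in each of 3 groups. Every label carries the same tumor protocol, in which 4MOSC1 cells, a carcinogen-derived mouse oral squamous carcinoma line, were placed in the tongue and grown for 10 days. The untreated group received no αCTLA-4, an antibody against the T cell checkpoint receptor CTLA-4, and no surgery. The early and late groups received 2 doses of αCTLA-4 followed by an early or a late neck dissection (ND), the removal of the lymph nodes that drain the tumor. The untreated group therefore differs from the early group in drug and in surgery together. From the late group it differs in drug, and in surgery only if blood was drawn after the late ND. It is not stated in the sources used here whether the untreated animals bore tumors beyond that shared protocol, and the study's legend and text differ on whether blood was drawn before or after the day of the late ND. The study contrasted early with late surgery, asking how the order of immune checkpoint inhibition (ICI) and nodal ablation is reflected in blood.

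The T cell receptor reads antigen peptides held by major histocompatibility molecules. Its α and β chains carry variable parts that bind the peptide and constant parts encoded by Trac and by either Trbc1 or Trbc2, but their own tails cannot signal. Signal is passed on by the CD3 γ, δ and ε chains (Cd3g, Cd3d, Cd3e) and the ζ chain (Cd247), whose tails are phosphorylated by Lck, while the coreceptors CD4 and CD8 (an α chain from Cd8a paired with a β chain from Cd8b1) hold Lck and mark helper and cytotoxic T cells. In blood these genes are T cell transcripts, with Cd247 also used by NK cells and Cd4 and Cd8a by some dendritic cells. Levels in whole blood are relative to the RNA of all its cells. Fewer T cells, less RNA per T cell and more RNA from other cells cannot be told apart.

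The members lie on 4 chromosomes in GRCm39. Cd3g (ENSMUSG00000002033, chr9:44880870-44891735, minus strand), Cd3d (ENSMUSG00000032094, chr9:44893083-44899173, plus strand) and Cd3e (ENSMUSG00000032093, chr9:44910037-44920925, minus strand) are neighbours on chromosome 9. Trbc1 (ENSMUSG00000076490, chr6:41515152-41516815), Trbc2 (ENSMUSG00000076498, chr6:41523664-41525286), Cd8b1 (ENSMUSG00000053044, chr6:71299772-71315087), Cd8a (ENSMUSG00000053977, chr6:71350411-71356157) and Cd4 (ENSMUSG00000023274, chr6:124841655-124874758, minus strand) are on chromosome 6. Trac (ENSMUSG00000076928, chr14:54457978-54461663) and Cd247 (ENSMUSG00000005763, chr1:165616250-165704846) lie on chromosomes 14 and 1. Of the exon bases of Cd247, 51.1% lie opposite exons of Pou2f1, and since no strand setting of the counting is given, reads of these genes there cannot be told apart.

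Trbc1 and Trbc2 are near copies, and reads can be assigned to one or the other only where their sequences differ. Their 518 coding bases differed at 23 positions, of which 1 lay in the 375 bases of coding exon 1 and 15 in the 107 bases of coding exon 3. The stretch of exon 1 that holds its single difference and the whole of exon 3, the part that separates the copies best, are shown from GRCm39, plus strand, with the bases that differ between the copies in capitals.
Trbc1 exon 1, chr6:41515392-41515451: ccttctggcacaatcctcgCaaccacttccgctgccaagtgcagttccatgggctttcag
Trbc2 exon 1, chr6:41523904-41523963: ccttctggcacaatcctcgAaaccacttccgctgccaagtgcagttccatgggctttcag
Trbc1 exon 3, chr6:41516163-41516269: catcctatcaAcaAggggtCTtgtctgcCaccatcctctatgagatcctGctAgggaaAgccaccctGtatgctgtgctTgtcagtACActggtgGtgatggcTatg
Trbc2 exon 3, chr6:41524706-41524812: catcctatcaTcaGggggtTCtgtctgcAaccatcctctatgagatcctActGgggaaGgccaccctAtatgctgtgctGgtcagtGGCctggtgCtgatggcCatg
Of the 588 windows of 150 bases, the length of 1 read, in the Trbc1 transcript, 110 (18.7%) were found in Trbc2 as well, and of the 543 such windows of Trbc2 the same 110 made 20.3%. The levels of the copies below thus rest on reads that cover bases at which the transcripts differ. The bases in capitals are a part of these, and no read was placed by position.

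Promoter sequences were at hand from RefSeq (GRCm38.p6) for 5 of the 10 members, Cd3g, Cd3d, Cd3e, Cd247 and Cd8a. Those of Cd3g, which passed the test below, and of Cd3d, transcribed away from it with 1354 bases between their start sites, are shown as the 250 bases before each start, 5′ to 3′ on the gene's own strand. Capitals mark matches, on either strand, to the 4 motifs searched, AGGAAG (ETS factors), CAGGTG (an E box), CTTTGA (Tcf7 and Lef1) and TGTGGT (Runx factors).
Cd3g, minus strand, chr9:44980432-44980681: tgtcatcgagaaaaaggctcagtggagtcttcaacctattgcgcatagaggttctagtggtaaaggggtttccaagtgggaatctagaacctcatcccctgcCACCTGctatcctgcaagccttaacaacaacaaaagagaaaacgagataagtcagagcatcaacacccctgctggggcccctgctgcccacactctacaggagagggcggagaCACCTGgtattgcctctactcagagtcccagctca
Cd3d, plus strand, chr9:44981536-44981785: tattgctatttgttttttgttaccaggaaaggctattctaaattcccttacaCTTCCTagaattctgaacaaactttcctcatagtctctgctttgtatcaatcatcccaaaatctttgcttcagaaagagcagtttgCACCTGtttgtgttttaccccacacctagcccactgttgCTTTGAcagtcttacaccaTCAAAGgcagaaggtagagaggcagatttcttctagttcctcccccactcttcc
The E box was found 2 times before Cd3g and 1 time before each of Cd3d and Cd247, against 17.2% of all 32851 promoters that hold it at least once. The ETS motif stood before Cd3e (2 times), Cd3d and Cd247 and in 29.5% of all promoters, the CTTTGA motif 2 times before Cd3d and in 13.8%, and the Runx motif before none of the 5 and in 14% of all. These are matches of letters in a window and no binding was measured.

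Library depth ran from 5527108 to 13924361 counts in genes, of which the 10 members took 0.0179% to 0.0697%. A single member had between 67 and 1381 counts in a library. Hemoglobin genes took 14.9% to 29.3% of the counts in the late libraries and 31.6% to 64.1% in the others, so levels are given as CPM, counts scaled to a common library size, after trimmed mean of M values (TMM) scaling, which corrects for a few genes filling a library. The libraries untreated 2, late 2 and late 3 stood apart in 18S ribosomal sequence, with 313 to 766 CPM against 13402 or more in the other 12, and they were among the deepest.

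Summed over the 10 members, levels were 422.9, 523.6, 467, 406.5 and 346.2 CPM in untreated libraries 1 to 5, 403.1, 437.3, 243.3, 462.2 and 373.9 CPM in the early libraries, and 310.4, 341, 297.8, 295.8 and 254.3 CPM in the late libraries. The means were 433.2 ± 66.5, 384 ± 85.5 and 299.9 ± 31.2 CPM (SD, n = 5 each). Every late library lay below every untreated library, while early 3, the lowest of all 15, lay below all the late ones and the other 4 early libraries lay above them. In single genes, the late group lay wholly below the untreated one for 5 of the 10, and for 2.98% of all genes tested.

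**Figure D1:**
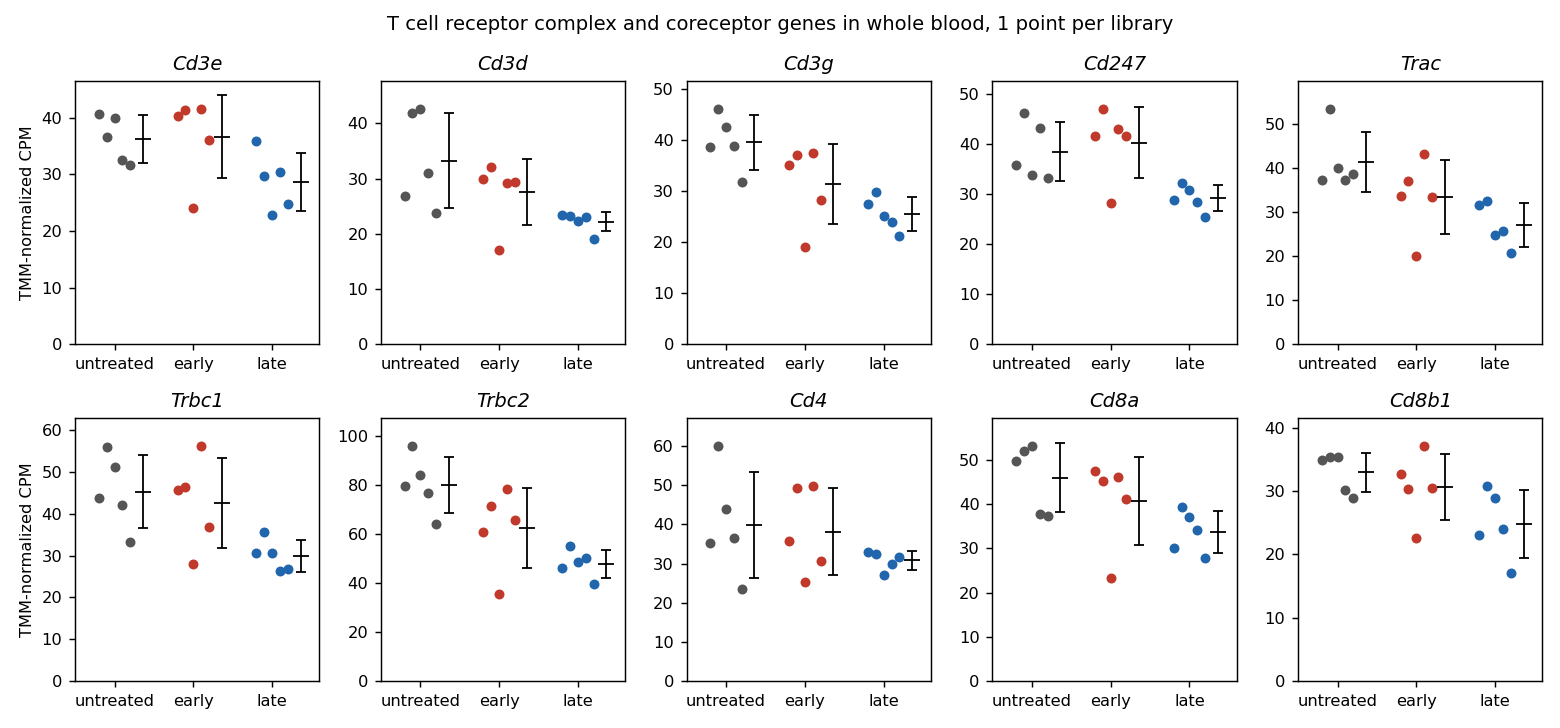
TMM-normalized CPM (y axis, starting at 0) of each of the 10 genes in 5 untreated, 5 early and 5 late libraries, 1 point per library in replicate order, with the mean and SD beside each group. Early 3 is the lowest early library in every panel, and in Trbc2 the late libraries (39.5 to 55.2 CPM) all lie under the untreated ones (64.3 to 96.1 CPM).

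Per kilobase of exon, so that genes can be compared, Trbc2 was the highest in untreated blood at 115.9 ± 16.7 CPM per kb, followed by Trbc1 at 61.5 ± 11.9 and Trac at 44.2 ± 7.31. The order of these 3 was kept in the early and late means. The CD3 chains and coreceptors were lower and close to one another, from Cd247 at 6.52 ± 1.00 to Cd8b1 at 14.9 ± 1.43 CPM per kb in untreated blood. Within that range the neighbours Cd4 (8.87 ± 3.0) and Cd3e (8.88 ± 1.02), and likewise Cd3g (12.1 ± 1.63), Cd8a (12.7 ± 2.16) and Cd3d (12.8 ± 3.31), differed by less than their SD. All transcripts of a gene were merged for its length, which lowers the value of genes with long rarely used exons.

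Late against untreated blood, all 10 members were lower in the late group, and 2 of them, the constant β chain gene Trbc2 and the CD3γ gene Cd3g, passed the test. This 2 of 10 stands beside 2.01% of all 13547 genes tested that were called lower at an adjusted p under 0.05 by edgeR's quasi-likelihood test. At an unadjusted p under 0.05, 9 of 10 were lower (all but Cd4), against 8.28% of all genes. The median log2 fold change of the members was -0.51, against 0.0023 over all genes. For 5 members (Cd3d, Cd3g, Cd247, Trac and Trbc2) no late library reached the lowest untreated one, as was so for 2.98% of all genes. With DESeq2 in place of edgeR, 6 of the 10 were called lower, against 3.97% of genes. The other members correlated with Cd3e over the 15 libraries (Pearson r = 0.672 to 0.797), so these counts are not counts of independent genes.

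Among the receptor chains, Trbc2 stood at 79.6, 96.1, 84.3, 76.7 and 64.3 CPM in the untreated libraries, 60.9, 71.4, 35.7, 78.3 and 65.9 CPM in the early and 46.2, 55.2, 48.5, 50.1 and 39.5 CPM in the late. The late and untreated groups did not overlap, and the early group overlapped both, with 3 untreated libraries above every early one. Late against untreated the log2 fold change of Trbc2 was -0.74 (SE 0.13, edgeR adjusted p = 0.0242), a level lower by 40.1%. The α chain gene Trac gave 37.4, 53.4, 40.0, 37.4 and 38.7 CPM untreated, 33.6, 37.1, 20.1, 43.3 and 33.4 CPM early and 31.8, 32.6, 24.8, 25.7 and 20.8 CPM late. Here untreated 2 was well above the other untreated libraries, and the late group again lay wholly below the untreated one. Its log2 fold change was -0.61 (SE 0.15), with an edgeR adjusted p of 0.0532 that missed the threshold. Trbc1, the other β copy, ranged over 33.2 to 56.0 CPM untreated, 27.9 to 56.3 CPM early and 26.2 to 35.6 CPM late, with a log2 fold change of -0.59 (SE 0.15, edgeR adjusted p = 0.0552) against untreated.

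Among the signaling chains, Cd3g was measured at 38.6, 46.1, 42.6, 38.9 and 31.8 CPM in the untreated libraries, 35.1, 37.1, 19.0, 37.5 and 28.4 CPM in the early and 27.4, 29.9, 25.1, 23.9 and 21.3 CPM in the late. All late values lay below the untreated ones, and early 3 was the lowest of the 15. The log2 fold change of Cd3g, late against untreated, was -0.63 (SE 0.13, edgeR adjusted p = 0.0274). Cd3d, whose δ chain pairs with ε, gave 26.9, 41.8, 42.6, 31.1 and 23.9 CPM untreated, 29.9, 32.1, 17.1, 29.2 and 29.5 CPM early and 23.5, 23.2, 22.3, 23.0 and 19.1 CPM late. The highest late value lay just under the lowest untreated one, and the untreated values were spread widely. Cd3d gave a log2 fold change of -0.58 (SE 0.16) and did not pass (edgeR adjusted p = 0.0731). Cd247, the ζ chain, gave 35.8, 46.2, 33.7, 43.1 and 33.2 CPM untreated, 41.5, 46.9, 28.2, 42.9 and 41.5 CPM early and 28.9, 32.1, 30.7, 28.4 and 25.3 CPM late. Of the early values 4 exceeded the untreated median, whereas the late ones were again below all untreated libraries, with a log2 fold change of -0.40 (SE 0.13, edgeR adjusted p = 0.118). Cd3e, whose ε chain pairs with both γ and δ, had the smallest log2 fold change of the 10, -0.33 (SE 0.14, edgeR adjusted p = 0.232), and its late range of 22.7 to 35.9 CPM overlapped the untreated range of 31.6 to 40.6 CPM.

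Among the coreceptors, Cd8a stood at 49.9, 52.1, 53.2, 37.9 and 37.2 CPM untreated, 47.5, 45.2, 23.4, 46.2 and 41.2 CPM early and 30.0, 39.4, 37.0, 34.2 and 27.9 CPM late. The first 3 untreated libraries were high and the other 2 overlapped the late range. Late against untreated its log2 fold change was -0.44 (SE 0.14, edgeR adjusted p = 0.135). Cd4 gave 35.4, 60.05, 44.0, 36.5 and 23.4 CPM untreated, 35.7, 49.4, 25.2, 49.8 and 30.6 CPM early and 32.9, 32.5, 27.0, 29.8 and 31.7 CPM late. Its untreated values spanned the whole late range, and its log2 fold change of -0.38 (SE 0.20, edgeR adjusted p = 0.364) had the largest SE of the 10. It was -0.16 without untreated 2, -0.53 without untreated 5 and -0.15 without the libraries low in 18S sequence. Cd8b1 ranged over 28.9 to 35.4 CPM untreated, 22.6 to 37.2 CPM early and 17.1 to 30.9 CPM late, with a log2 fold change of -0.40 (SE 0.16, edgeR adjusted p = 0.212).

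**Figure D2:**
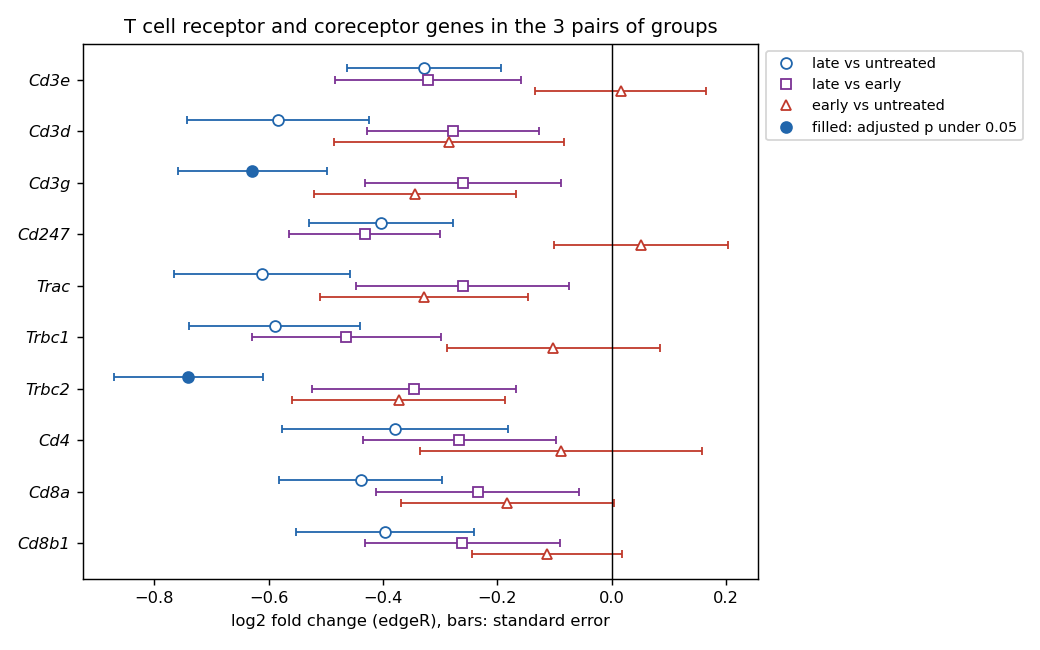
Log2 fold change (x axis) of each gene in late against untreated (circles), late against early (squares) and early against untreated (triangles) blood, with standard errors as bars and filled symbols where the edgeR adjusted p was under 0.05. All circles and squares lie left of 0, and the 2 filled symbols are Trbc2 (-0.74) and Cd3g (-0.63), late against untreated.

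The 2 calls did not hold when single libraries were left out, while the fold changes stayed in place (-0.66 to -0.82 for Trbc2 and -0.56 to -0.72 for Cd3g). Without any 1 late library, or without untreated 3, no member passed, in fits that called 0% of all genes lower, and without untreated 1, 2 or 4 only Trbc2 did (0.777%, 1.99% and 0.852% of genes), whereas without untreated 5 there were 5 (2.91% of genes). Without the 3 libraries low in 18S sequence none of the 10 was called, in a fit that called 0 of 13051 genes lower. At an unadjusted p under 0.05 there were 8 members lower in that fit, beside 961 of the 13051 genes. Scaling by library totals in place of TMM turned all 10 members to higher in the late group with none called (log2 fold changes 0.16 to 0.60). On that scale 55.2% of all genes were called higher and their median moved to 0.91. A change of scaling moves all genes by about the same amount, so the place of the members below the median gene is no separate result there.

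Late against early blood, the comparison the study made, all 10 members were lower in the late group and none passed the test. The median log2 fold change was -0.27, between -0.46 for Trbc1 (SE 0.17, edgeR adjusted p = 0.112) and -0.23 for Cd8a (SE 0.18, edgeR adjusted p = 0.464), against 0.0138 over all 13315 genes. In that comparison 2.48% of genes were called lower. At an unadjusted p under 0.05 there were 2 members, Cd247 (log2 fold change -0.43, SE 0.13, edgeR adjusted p = 0.0729) and Trbc1, against 9.33% of genes, and no member had groups apart, against 2.93%. DESeq2 called 1 of 10, Cd247 (DESeq2 adjusted p = 0.0251), where it called 5.03% of genes lower. Both comparisons of the late group use the same 5 late libraries, so their values are not independent.

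The count late against early depended on early 3. Without it, 4 members were called lower in late blood, Cd3d (log2 fold change -0.41, edgeR adjusted p = 0.0285), Cd247 (-0.53, adjusted p = 0.0156), Trbc1 (-0.58, adjusted p = 0.0240) and Trbc2 (-0.49, adjusted p = 0.0286), beside 4.04% of 13676 genes. It had 7182346 counts in genes, the most of the early group, and 39.7% hemoglobin, within that group's range, and no label separates it from the other 4. With library totals in place of TMM all 10 were higher in late than in early blood, 4 of them called (Trac, Cd4, Cd8a and Cd8b1, log2 fold changes 0.62 to 0.64), while 67% of all genes were called higher and their median stood at 0.86.

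Early against untreated blood, none of the 10 passed the test and none had an unadjusted p under 0.05. Of the members, 8 were lower and 2 (Cd247 and Cd3e, log2 fold changes 0.05 and 0.02) higher, with a median of -0.15 against -0.0022 over all 12151 genes. The values furthest from 0 were those of Trbc2 (-0.37, SE 0.19) and Cd3g (-0.34, SE 0.18), both with an edgeR adjusted p of 0.938. All members overlapped between the groups. Among all genes, 0% were called lower by edgeR and 0% by DESeq2, 2.33% had an unadjusted p under 0.05 and a lower level, and 0.23% had groups apart and lower.

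**Figure D3:**
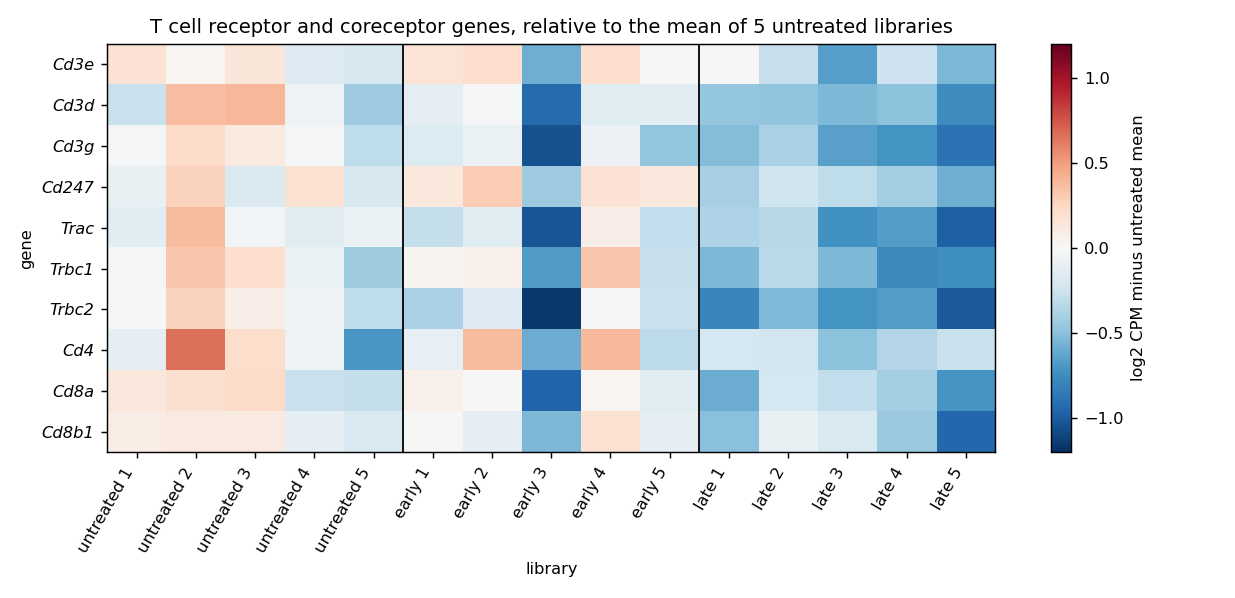
Log2 CPM of each gene (rows) in each library (columns) minus the mean of the 5 untreated libraries, blue where lower and red where higher, with black lines between groups. The column of early 3 is blue in all rows, unlike the other early columns, and the 5 late columns are at or below the untreated mean in nearly every row.

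The balance of cytotoxic to helper T cells was read as the ratio of Cd8a to Cd4 counts within a library, which does not depend on the scaling. It was 1.41, 0.867, 1.21, 1.04 and 1.59 in the untreated libraries, 1.33, 0.916, 0.929, 0.928 and 1.35 in the early and 0.912, 1.21, 1.37, 1.15 and 0.881 in the late. Each group held libraries on both sides of 1, and the 3 ranges overlapped almost wholly. The counts were not scaled by exon length (3637 bases for Cd8a, 4496 for Cd4), so a ratio of 1 does not mark equal numbers of the cells. The group means were 1.22 ± 0.288, 1.09 ± 0.228 and 1.10 ± 0.207 (SD, n = 5 each). The log2 ratio differed by 0.02 late against early, -0.13 late against untreated and -0.16 early against untreated, with two-sided exact permutation p = 0.952, 0.516 and 0.460 (adjusted over the 3 comparisons 0.952, 0.774 and 0.774). No difference in this ratio was detected between groups of 5 libraries, in which the log2 ratio had an SD of 0.27 to 0.35. The sign of the late against early difference turned, to -0.14, without the libraries low in 18S sequence. Late against untreated in that setting, the edgeR log2 fold changes were -0.55 for Cd8a and -0.15 for Cd4. With all libraries they were -0.44 and -0.38, so the late against untreated balance of the 2 genes depended on those libraries as well.

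**Figure D4:**
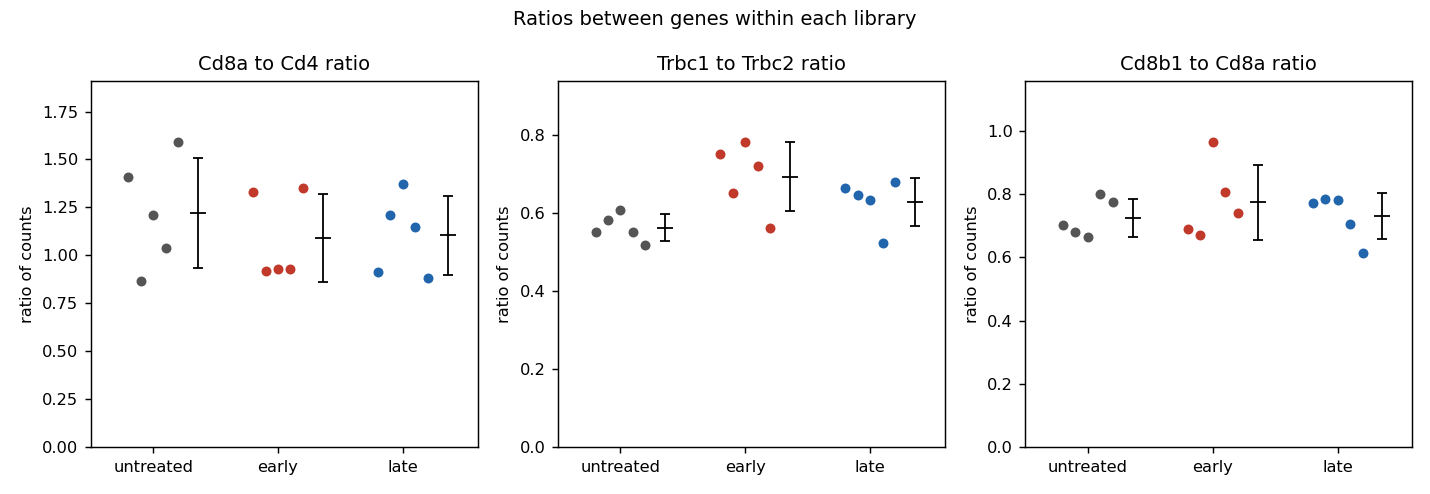
Ratios of counts between gene pairs (y axes, starting at 0) in each library, 1 point per library, with the mean and SD beside each group. The Cd8a to Cd4 ratios of the 3 groups overlap (0.867 to 1.59 untreated, 0.916 to 1.35 early, 0.881 to 1.37 late), and the Trbc1 to Trbc2 ratio is 0.517 to 0.608 in untreated libraries.

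The use of the β constant copies was read in the same way, from the reads that could be assigned to one copy. The Trbc1 to Trbc2 ratio was 0.552, 0.583, 0.608, 0.551 and 0.517 in the untreated libraries, 0.751, 0.650, 0.782, 0.720 and 0.560 in the early and 0.664, 0.646, 0.632, 0.524 and 0.679 in the late. Trbc1 was thus below Trbc2 in all 15 libraries, and 4 of 5 early and 4 of 5 late libraries exceeded every untreated one. The early and untreated groups differed by 0.29 in the log2 ratio (exact permutation p = 0.0238), which did not hold after adjustment over the 15 tests of this ratio and 4 others (adjusted p = 0.357). Late against untreated the difference was 0.16 (exact permutation p = 0.0794, adjusted p = 0.397) and late against early -0.13 (exact permutation p = 0.270, adjusted p = 0.768).

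The other ratios compared chains assembled together and, for Trdc to Trac, the γδ with the αβ receptor. Cd8b1 to Cd8a was 0.725 ± 0.0595, 0.774 ± 0.119 and 0.731 ± 0.0734 in untreated, early and late libraries, and Cd247 to Cd3e was 1.07 ± 0.219, 1.10 ± 0.0668 and 1.04 ± 0.203 (SD, n = 5 each). Trac to Cd3e was 1.15 ± 0.211, 0.907 ± 0.0861 and 0.952 ± 0.132, with 3 early libraries under all untreated ones, and its early against untreated difference of -0.33 in the log2 ratio (exact permutation p = 0.0476) did not hold after adjustment (adjusted p = 0.357). The γδ receptor gene Trdc stood at 0.117 ± 0.0196, 0.112 ± 0.0246 and 0.132 ± 0.0331 of Trac, and none of its differences had an exact permutation p under 0.365.

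The variable segments, which are joined to these constant genes, gave few counts. Trbv segments summed to 46.0 ± 9.98 CPM in untreated, 39.2 ± 9.36 in early and 31.0 ± 4.77 in late libraries, and Trav segments to 15.9 ± 3.04, 13.7 ± 5.0 and 10.4 ± 1.37 CPM (SD, n = 5 each). Both families had the same order of means as Trbc2 and Trac. The 5 Trbv segments with most counts were Trbv1, Trbv16, Trbv13-2, Trbv3 and Trbv2, at 9.72%, 9.46%, 9.11%, 8.80% and 6.91% of all Trbv counts, and their group means stayed between 6.75% and 10.7%. Trbv3 took 8.11 ± 2.72%, 10.7 ± 1.67% and 8.19 ± 0.940% of Trbv counts in the untreated, early and late groups, and its ranges overlapped. A library had 131 to 961 Trbv counts, so a clonal shift could not be read from them.

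Downstream of the receptor, 35 genes of the signaling pathway were all detected and tested. Late against untreated, 28 were lower and 7 higher (median log2 fold change -0.33). The test called 2 of them lower and none higher, beside 2.01% and 0.989% of all genes. Themis, a regulator of receptor signal strength, was called at -0.69 (SE 0.14, edgeR adjusted p = 0.0250). Themis ranged over 17.2 to 24.6 CPM untreated and 10.9 to 15.9 CPM late, without overlap. Of all genes, 2.98% lay apart and lower in this way. Without the libraries low in 18S sequence 0% of all genes were called lower, so the call of Themis did not hold there. At an unadjusted p under 0.05 there were 15 of the 35 lower and 2 higher, against 8.28% and 8.69% of all genes.

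Of the kinases and adaptors nearest to the receptor, Lck, which phosphorylates the CD3 tails, stood at 69.8 ± 14.2 CPM untreated, 62.0 ± 15.2 early and 50.3 ± 1.74 late. Its log2 fold change late against untreated was -0.47 (SE 0.13, edgeR adjusted p = 0.0908). Zap70, the kinase that docks on phosphorylated ζ, gave -0.41 (SE 0.12, edgeR adjusted p = 0.0864) and the adaptor Lat -0.52 (SE 0.13, edgeR adjusted p = 0.0501), so that neither passed. The surface receptors Cd2, Cd5 and Cd28, which adhere, dampen and costimulate, gave -0.40, -0.34 and -0.49 (edgeR adjusted p from 0.196 to 0.234). Ptprc, the phosphatase CD45 of all white cells, gave 0.20 (SE 0.17, edgeR adjusted p = 0.622). It alone stood at 1140 ± 232 CPM in late blood, where the 35 genes summed to 2772 ± 293 CPM, against 2763 ± 124 CPM untreated (SD, n = 5 each). Late against early 25 of the 35 were lower and none was called in either direction (median -0.27). Of all genes, 2.48% were called lower and 2.5% higher there. Early against untreated 23 were lower and none was called (median -0.04), beside 0% of all genes.

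Markers of other blood cells also differed in the late group. Of 6 monocyte markers 3 were called higher late against untreated, among them Csf1r (0.73, SE 0.16, edgeR adjusted p = 0.0322), and their summed level was 579.2 to 875.1 CPM late against 328.6 to 543.9 CPM untreated and 314.1 to 692.3 CPM early. Of 7 dendritic cell markers tested (8 listed) 2 were called higher, Flt3 (1.28, SE 0.20) and Cd209a (1.60, SE 0.26, both edgeR adjusted p = 0.0242). Xcr1 and Ccr9, at -0.42 and -0.44, were lower without passing, and the 8 summed to 47.1 to 62.4 CPM late and 38.2 to 44.9 CPM untreated. Over all genes 0.989% were called higher late against untreated and 2.5% late against early. Red cell markers were lower in 6 of 6, with 2 called, beside 2.01% of all genes called lower. These calls late against untreated did not hold without the 3 libraries low in 18S sequence. That fit, and the fit without late 1, called 0% of all genes higher and 0% lower. None of the 8 NK, 6 B cell, 6 neutrophil or 4 tested platelet markers was called, though all NK, B cell and platelet ones were lower, and NK markers summed to 90.7 to 118 CPM late and 84.7 to 182.7 CPM untreated. Every dendritic, monocyte, NK and B cell marker had counts. Their part in the lower member levels was not tested.

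Late against early, 2 monocyte and 2 dendritic cell markers were called higher and 3 red cell markers lower, beside 2.48% of all genes called lower. Without the libraries low in 18S sequence, 0.0298% of all genes were called higher and 0% lower in this comparison. No call of a lower level, that of Lef1 below included, held there. The 7 dendritic cell markers tested were split, 4 higher and 3 lower, with Xcr1 at -0.67 (edgeR adjusted p = 0.232). All 6 neutrophil markers were higher at an unadjusted p under 0.05, as were 14.4% of all genes, and none was called. Early libraries summed to 2271 to 6684 CPM of these markers against 5162 to 13530 CPM late. In the T cell subset lists, Lef1, a transcription factor of naive T cells, was called lower late against early (-0.58, SE 0.13, edgeR adjusted p = 0.0292), the only 1 of 5 naive markers called in any comparison, and none of the 4 regulatory T cell markers was called in any.

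Across the 15 libraries the genes most like Cd3e in log2 CPM, of 13391 ranked with members and segments left out, were Vps13a (Pearson r = 0.956), Rpl6 (0.911), Rpl10a (0.901), Rpl29 (0.900), Rpl3 (0.899), Ccnd2 (0.897), Zfp260 (0.895), Rbl1 (0.887), Pced1b (0.887) and Rpl14 (0.879). They include 5 ribosomal protein genes of the large subunit. The other members were less like Cd3e, from Cd4 (0.672) to Cd3g (0.797). These correlations describe libraries that share their scaling and their group differences, and after the group means were taken off Vps13a stood at 0.959 and Cd3g at 0.802.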

How the data were processed

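Whole blood RNA of 15 mice, 5 per group, was sequenced by the authors as paired reads of 150 bases. Per the labels, reads were aligned to GRCm39 with STAR 2.7.9, sorted with SAMtools 1.7 and counted per gene with HTSeq-count 0.13.5, and the deposited values are raw counts. The submitters' processing notes also list mm10. The annotation release and strand setting are not given in the sources used here. Of 55416 identifiers, 54749 were matched to a GRCm39 annotation by Ensembl ID. Pairs of groups were fitted with edgeR 4.0.16 in R 4.3.3 (filterByExpr, TMM, quasi-likelihood test, Benjamini-Hochberg adjustment over all genes tested, threshold 0.05). Plotted CPM used TMM over all 15 libraries. The study's own test, DESeq2 (here 1.42.0), was an alternative. Ratios were tested by exact permutation of log2 count ratios with 0.5 added to each count, with p-values adjusted over 3 Cd8a to Cd4 comparisons and over 15 for the others. Groups came from the labels and replicates are taken as separate animals, each blood sample being described as drawn per animal. Members and gene lists were chosen with earlier results of these data known. Pathway genes named in the text were Lck, Zap70, Lat, Cd2, Cd5, Cd28 and any called (1 called gene is not reported here), and others were named by their list, their counts (Trbv) or their correlation with Cd3e, with Ptprc, Trbv3 and the examples of the marker lists chosen after their values were seen. Scripts were tested on simulated data. Counting error limits members with few counts. Settings changed one at a time are described in the closing section. No protein sequences were used here.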

Additional observations from a re-analysis of the deposited data

Results flagged for a closer look

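In 5 cases a single library stood apart from the other 4 of its group by Dixon's test at the 95% level, out of 48 groups of 5 values examined, of which chance would flag about 2.4. Of these, 3 were early 3, the lowest early library for Cd3d (17.1 CPM), Cd247 (28.2 CPM) and Cd8a (23.4 CPM). Late 5 was the lowest late library for Cd3d (19.1 CPM). Untreated 2 was the highest untreated library for Trac (53.4 CPM). Without early 3, late against early, 4 members were called lower in place of 0 (4.04% of all genes). Without late 5 or without untreated 2, late against untreated, the 2 members called became 0 and 1, with 0% and 1.99% of all genes called lower, while Trbc2 stood at -0.70 and -0.66 and Cd3g at -0.59 and -0.56.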

How the results depend on the processing

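Late against untreated, the 2 members called lower (2.01% of all genes) became 4 with DESeq2 size factors inside edgeR (2.1%), 4 without hemoglobin genes (1.97%), 6 with DESeq2 (3.97%), 4 under a minimum of 10 counts per library (3.36%), 1 with all 15 libraries in one fit (1.51%), 0 with library totals (0.664%) and 0 without the 18S-poor libraries (0%), and leaving out 1 library gave 0 to 5. Late against early, the count of 0 became 4, all higher, with library totals (67% of genes higher) and 1 with DESeq2 (5.03% lower), and leaving out 1 library gave 0 to 4. Early against untreated it was 0 under every setting run. The causes of these shifts were not tested.

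With library totals the log2 fold changes late against early were 0.53 (Cd3e), 0.58 (Cd3d), 0.61 (Cd3g), 0.44 (Cd247), 0.63 (Trac), 0.43 (Trbc1), 0.56 (Trbc2), 0.62 (Cd4), 0.64 (Cd8a) and 0.62 (Cd8b1), and late against untreated 0.60, 0.30, 0.28, 0.47, 0.25, 0.32, 0.16, 0.48, 0.50 and 0.53 in the same order, while the median gene moved by over 0.8. Values near 0 changed sign early against untreated: Cd4 was 0.13 without the 18S-poor libraries, and leaving out 1 library gave -0.0393 to 0.14 (Cd3e), -0.0151 to 0.15 (Cd247), -0.21 to 0.0158 (Trbc1) and -0.24 to 0.13 (Cd4).

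The Cd8a to Cd4 difference late against early was -0.14 without the 18S-poor libraries and -0.0616 to 0.10 with 1 library left out. Among ratios whose alternatives were chosen after seeing the data, without the 18S-poor libraries Cd8b1 to Cd8a late against untreated was -0.0823 and Trac to Cd3e late against early -0.0789. With 1 library left out, Cd8b1 to Cd8a was -0.13 to 0.0059 (late against early) and -0.0190 to 0.0722 (late against untreated), Cd247 to Cd3e -0.14 to 0.0418 (late against untreated) and -0.0198 to 0.14 (early against untreated), and Trdc to Trac -0.19 to 0.0652 (early against untreated). None of these passed a test.

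With the replicate block, 5 members were called late against untreated (2.78% of genes), and Cd3e early against untreated was -0.0015. Same-numbered late and untreated libraries correlated at 0.03 to 0.58 over genes, 3 of 5 best with their own number. Their mean was 0.24, against -0.06 for differently numbered libraries. In the other pairs of groups, same-numbered libraries correlated below 0 on average. These correlations do not measure how alike the expression levels of the libraries are. Untreated 2 and late 2, which share a number, were both low in 18S sequence. The labels do not say that the numbers pair animals, and this was not tested. The depth, with as few as 67 counts of a member in a library, limits small differences.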
